A study of Mus musculus with 18 samples.

Results

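Expression of 10 genes that mark blood vessel endothelium was followed through the neuronal differentiation of mouse embryonic stem (ES) cells with and without HPRT, the purine salvage enzyme whose loss causes Lesch-Nyhan disease in humans. The genes were Pecam1, Cdh5, Kdr, Flt1, Tek, Tie1, Eng, Cldn5, Esam and Emcn. They were taken as the probes whose annotated gene symbol equals one of these names, which gave 14 of the 45281 probes and 10 of the 30869 gene symbols of the Illumina MouseWG-6 v2 bead array. Of the genes, 6 had 1 probe, and Pecam1, Cdh5, Kdr and Flt1 had 2. The cells were the ESD3 line of mouse strain 129s2/SvPas, grown on mouse embryo fibroblast feeder cells. All cells carried a virus with an shRNA and had been selected with puromycin: the control cells an shRNA against luciferase, the HPRT-knockdown cells an shRNA against HPRT, designed on the human gene (the vector is called retroviral in the sample descriptions and lentiviral in the study's methods). RNA was taken at the undifferentiated ES stage, at the stage of spherical neural masses (SNM, floating neural aggregates) and at the final neuronal stage of a dopaminergic differentiation. Each of the 6 conditions was measured on 3 arrays, 18 in all. RNA of replicate cultures had been pooled within a condition, so the SD over arrays and every test below measure the error of the array and not the spread between cultures.

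Endothelial cells line blood vessels. They are held together by the adhesion proteins VE-cadherin (Cdh5), PECAM-1 (Pecam1) and ESAM (Esam) and, at tight barriers such as that of the brain, by claudin-5 (Cldn5). They receive VEGF through the receptors Kdr and Flt1, angiopoietins through Tek and its partner Tie1, and TGF-beta family signals with the co-receptor endoglin (Eng), while endomucin (Emcn) is a mucin-like protein of the venous and capillary surface. ETS family transcription factors, Erg and Fli1 among them, bind a GGAA core in the promoters and enhancers of many of these genes. Outside vessels several of them are known from other cells: Pecam1 from mouse ES cells and blood cells, and Eng from mesenchyme and smooth muscle.

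Promoters from the RefSeq tables (mouse build GRCm38.p6) are shown for Emcn, Cldn5 and Eng, because Emcn and Eng were called lower in knockdown cells at a differentiated stage, Cldn5 stood highest at the SNM stage, and the upstream bases of all 3 lie outside the annotated gene. Capitals mark GGAA, the ETS core, on either strand (TTCC where it lies on the other strand). The windows end at the annotated gene start and are on the plus strand, at chr3:137340828-137341061 for Emcn, chr16:18776597-18776846 for Cldn5 and chr2:32646345-32646594 for Eng.
Emcn: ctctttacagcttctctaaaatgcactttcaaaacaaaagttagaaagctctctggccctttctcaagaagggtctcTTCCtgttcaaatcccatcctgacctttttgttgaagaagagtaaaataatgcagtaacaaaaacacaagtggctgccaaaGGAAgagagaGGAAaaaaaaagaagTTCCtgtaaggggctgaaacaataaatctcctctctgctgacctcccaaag
Cldn5: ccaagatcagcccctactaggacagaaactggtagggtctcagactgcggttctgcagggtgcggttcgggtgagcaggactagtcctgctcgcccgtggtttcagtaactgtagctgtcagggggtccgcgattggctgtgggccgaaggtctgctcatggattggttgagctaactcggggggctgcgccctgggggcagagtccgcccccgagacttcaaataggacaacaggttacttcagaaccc
Eng: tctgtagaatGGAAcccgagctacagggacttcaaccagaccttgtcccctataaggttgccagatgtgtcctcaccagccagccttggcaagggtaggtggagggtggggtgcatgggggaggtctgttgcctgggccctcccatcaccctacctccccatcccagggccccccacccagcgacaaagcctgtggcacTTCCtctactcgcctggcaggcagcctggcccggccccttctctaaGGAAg

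The Emcn window of 234 bases held 4 matches to GGAA and the Eng window of 250 bases held 3. The Cldn5 window of 250 bases held 0. Over all 32851 promoters of the table, 92.2% held a match in a window of 234 bases and 93.4% in a window of 250 bases, with a median of 3 matches. The longer word AGGAAG, which contains the core, was found at 2 places for Emcn, 2 for Eng and 0 for Cldn5, and in 27.6% and 29.5% of all promoters in windows of 234 and 250 bases. A match describes the letters of the window and is not a measured binding site.

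The label of the knockdown was checked first. The brightest of the 3 probes for Hprt1, the array's name for Hprt, decreased by 94.1% in knockdown against control cells of the ES stage, by 70.5% in SNM and by 95.4% in cells of the neuronal stage. Each array detected between 18827 and 22202 of the 45281 probes at a detection p-value under 0.05, that is, above nearly all negative-control beads. No arrays were identical, and log2 signals of arrays of one condition correlated across probes at 0.992 to 0.997. Of 15 pluripotency markers tested, 15 fell from the ES to the SNM stage in both cell types, beside 25.4% of all tested probes called lower in control and 30.9% in knockdown cells. Control cells of the neuronal stage stood apart by skeletal muscle genes: 17 of 17 muscle markers were detected there on all 3 arrays, with a summed normalized signal of 110100 to 111800, against 344.3 to 545.9 in knockdown cells, where 6 of the 17 were detected on all 3 arrays. Since every condition is a mixture of cells, fewer cells of a type and less RNA per cell cannot be told apart in any result below.

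Vascular genes were measured in these neural cultures without the full set that defines endothelium. Of the 10 genes, 8 were detected on all 3 arrays of at least 1 condition, and the other 2, Kdr and Tie1, on all 3 arrays of none. Counted by probe and not by gene, 23172 of all 45281 probes were detected on all 3 arrays of at least 1 condition. Cdh5 and Esam were detected on all 18 arrays, Flt1 on 17, Eng on 15, Tek on 14, Pecam1 on 13, Emcn on 12, Cldn5 on 8, Kdr on 6 and Tie1 on 1. The transcription factors Erg and Fli1 were detected on 0 of 3 arrays of every condition. A gene with 2 probes is represented below by the probe that is brighter over all arrays. The levels are log2 normalized signals, single values called signals are the deposited bead averages, and the summed normalized signal of a marker list is the sum of its background-corrected, normalized values on the linear scale.

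**Figure D1:**
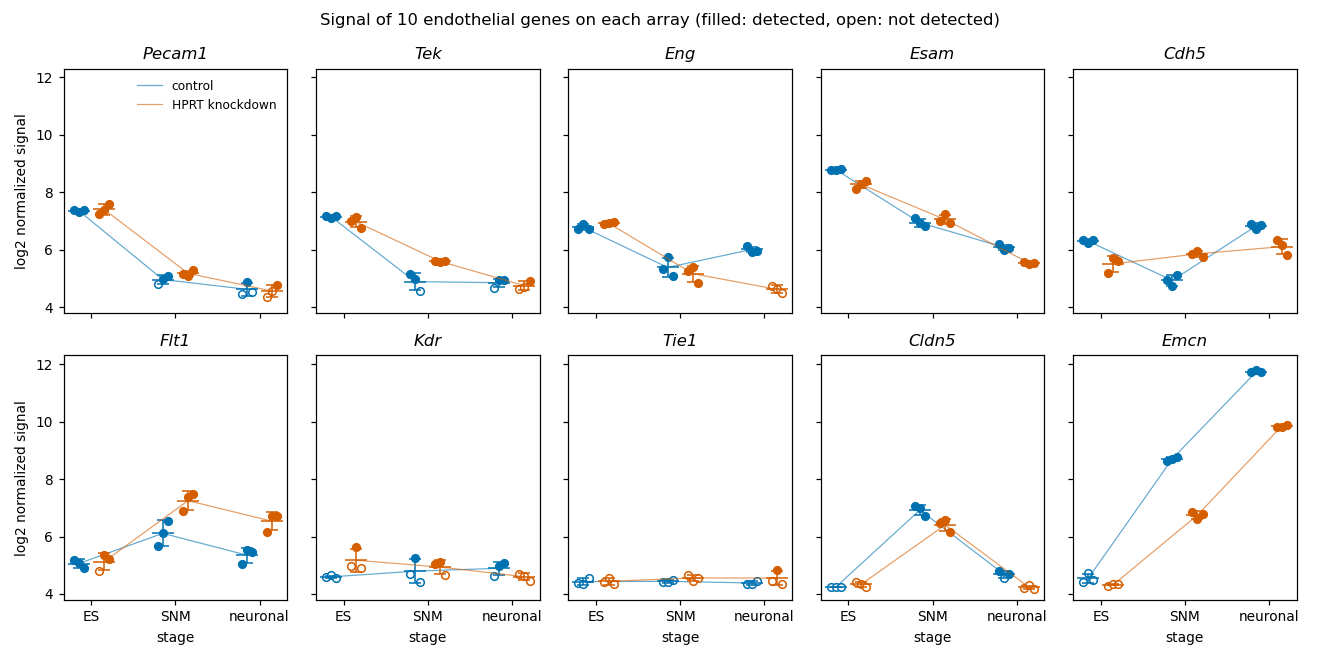
Log2 normalized signal (vertical axis) of each of the 10 genes at the ES, SNM and neuronal stage (horizontal axis) in control (blue) and HPRT-knockdown cells (orange). Points are single arrays, filled where the probe was detected at a p-value under 0.05 and open where it was not; bars are the mean and SD of 3 arrays of 1 RNA pool, and lines join the means. Emcn rose at each step and lay lower in knockdown cells at the SNM and neuronal stages, Cldn5 peaked at the SNM stage, and Pecam1, Tek and Esam were highest at the ES stage.

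Emcn changed over a wider range of levels than any other of the 10, from undetected to a log2 level of 11.74. Its probe (RefSeq NM_016885, chromosome 3) was detected on 0 of 3 arrays at the ES stage in either cell type. In SNM the signals were 462.5, 521.1 and 512.5 in control and 174.6, 147.5 and 182.5 in knockdown cells. They were higher after neuronal differentiation, at 3526, 3042 and 3405 in control and 912.2, 945.5 and 1077 in knockdown cells. The control arrays lay above the knockdown arrays at these stages with no overlap. The log2 level was 8.70 ± 0.07 (SD, n = 3 arrays) in control and 6.75 ± 0.13 in knockdown cells of the SNM stage, and 11.74 ± 0.04 and 9.84 ± 0.05 in those of the neuronal stage. The gene was thus 3.88-fold lower in knockdown SNM (log2 fold change -1.95 ± 0.08, SE, adjusted p = 1.03e-11 from limma) and 3.74-fold lower in knockdown cells of the neuronal stage (-1.90 ± 0.08, adjusted p = 3.76e-12). From the SNM to the neuronal stage it rose by 3.04 on the log2 scale in control and by 3.09 in knockdown cells. The difference between these rises was 0.05 ± 0.11 (adjusted p = 0.723). Against background at the ES stage, the level of the SNM stage was at least 14.2-fold higher in control and at least 3.51-fold higher in knockdown cells.

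Cldn5, the claudin of the blood-brain barrier, appeared at the SNM stage and fell again. Its probe (NM_013805, chromosome 16) was detected on 0 of 3 arrays at the ES stage in both cell types. In SNM its signals were 185.6, 188.4 and 162.7 in control and 147, 145 and 136.6 in knockdown cells, and these did not overlap. The knockdown level was 1.43-fold lower (-0.52 ± 0.10, adjusted p = 4.66e-04), which passed the test but not the minimum change of 1.5-fold required for a call. It passed that minimum too without knockdown array 2 (-0.60) or control array 3 (-0.62) of the SNM stage. In cells of the neuronal stage, signals of 77.1, 63.98 and 77.55 in control cells were detected on 2 of 3 arrays, and those of 52.2, 57.3 and 49.11 in knockdown cells on 0 of 3. The fall from the SNM to the neuronal stage was 4.70-fold in control cells (adjusted p = 2.12e-11) and at least 3.16-fold in knockdown cells (adjusted p = 2.95e-11).

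Cdh5, which encodes VE-cadherin, was represented by a probe that carries the gene's symbol but no RefSeq accession or chromosome. Its signals at the ES stage were 115.7, 103.4 and 117.1 in control and 82.61, 97.9 and 86.94 in knockdown cells. In SNM they were 78.68, 72.4 and 85.07 in control and 112.9, 112.2 and 114.2 in knockdown cells, so that the order of the cell types was the opposite. After neuronal differentiation they were 188.8, 147.1 and 184.9 in control and 129.1, 118.4 and 112.7 in knockdown cells. At no stage did the arrays of the cell types overlap. The log2 fold change in knockdown cells was -0.79 ± 0.14 in ES cells (adjusted p = 0.00185), 0.93 ± 0.14 in SNM (adjusted p = 4.01e-05) and -0.72 ± 0.14 in cells of the neuronal stage (adjusted p = 3.09e-04). The other probe, which does carry the accession of Cdh5 (NM_009868, chromosome 8), was detected on all 3 arrays in control cells of the neuronal stage alone, with signals of 85.05, 85.21 and 77.17 against 61.21, 69.59 and 60.81 in knockdown cells, where 0 of 3 arrays detected it. There it was lower in knockdown cells, with overlapping normalized levels, by at least 1.25-fold (log2 fold change -0.61 ± 0.18, adjusted p = 0.00800). At the ES and SNM stages the annotated probe was not tested, so the changes of Cdh5 there rest on the probe without an accession.

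Pecam1 and Esam, adhesion proteins of endothelial junctions, were highest in undifferentiated cells. Pecam1 (NM_008816, chromosome 11) had signals of 186.2, 167.6 and 188.2 in control and 171.9, 216.8 and 198.6 in knockdown cells at the ES stage, where the cell types overlapped (0.05 ± 0.13, adjusted p = 0.853). It fell by 2.39 on the log2 scale to the SNM stage in control and by 2.23 in knockdown cells (adjusted p = 4.56e-11 and 8.36e-11). The other Pecam1 probe, of another RefSeq transcript (NM_001032378), fell by at least 5.37-fold in control cells and by 2.33 on the log2 scale in knockdown cells. The brighter probe was detected on 1 of 3 arrays of each cell type at the neuronal stage. Esam (NM_027102, chromosome 9) had signals of 432.7, 403 and 439.1 in control and 282.6, 380.5 and 315.7 in knockdown cells at the ES stage, which did not overlap. Its log2 level fell stepwise in control cells, from 8.78 ± 0.02 through 6.94 ± 0.14 to 6.08 ± 0.09, and in knockdown cells from 8.27 ± 0.13 through 7.05 ± 0.16 to 5.54 ± 0.05. The knockdown level was 1.43-fold lower in ES cells (adjusted p = 0.00158) and 1.46-fold lower in cells of the neuronal stage (adjusted p = 6.12e-05), both under the minimum change for a call. Without control array 2 of the neuronal stage the latter was called (-0.59).

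Of the VEGF receptors among the 10 genes, Flt1 was detected at every stage and Kdr only on scattered arrays. Flt1, which binds VEGF-A and placental growth factor and holds VEGF-A back from Kdr, lies on chromosome 5 (NM_010228). Its signals at the ES stage were 82.86, 75 and 79.86 in control and 76.45, 86.93 and 79.48 in knockdown cells. These overlapped (0.06 ± 0.23, adjusted p = 0.906). In SNM they were 98.64, 122.7 and 150 in control and 176.7, 216.5 and 264.4 in knockdown cells. After neuronal differentiation they were 83.83, 89.29 and 101.5 in control and 119.8, 153.2 and 170.6 in knockdown cells. The knockdown arrays lay above all control arrays at both later stages, 2.20-fold in SNM (log2 fold change 1.14 ± 0.23, adjusted p = 6.06e-04) and 2.27-fold in cells of the neuronal stage (1.18 ± 0.23, adjusted p = 3.41e-04). The other Flt1 probe, annotated with the same RefSeq accession, was detected on none of the 18 arrays, with signals between 50.09 and 69.79, so the values of Flt1 rest on 1 probe. Averaging both probes brought the change below 1.5-fold at both stages (0.53 in SNM and 0.57 in cells of the neuronal stage). Kdr, the main signalling receptor for VEGF-A, was detected by its brighter probe (NM_010612, chromosome 5) on 1 of 3 knockdown arrays at the ES stage, 1 control and 2 knockdown arrays of SNM and 2 control arrays of the neuronal stage. All its signals lay between 67.14 and 94.51, and no comparison of Kdr was tested. Its other probe, without an accession, was detected on no array.

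Tek, the receptor of the angiopoietins (NM_013690, chromosome 4), was like Pecam1 a gene of the ES stage. Its signals there were 166.8, 151.6 and 168.9 in control and 154.1, 187.6 and 130.8 in knockdown cells, which overlapped (-0.18 ± 0.13, adjusted p = 0.431). In SNM they were 83.24, 78.12 and 70.89 in control and 103.3, 95.57 and 107.4 in knockdown cells. The knockdown level was 1.63-fold higher (0.70 ± 0.13, adjusted p = 2.74e-04), with 2 of 3 control arrays detecting the probe. Without control array 3 of the SNM stage it was 0.53 and no longer called. Of the arrays of the neuronal stage, 2 control arrays and 1 knockdown array detected it. Tie1, which forms complexes with Tek (NM_011587, chromosome 4), was detected on 1 of 18 arrays, a knockdown array of the neuronal stage, with signals between 57.19 and 73.86 throughout.

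Eng, the TGF-beta family co-receptor (NM_007932, chromosome 2), had signals of 135.6, 137.1 and 136.8 in control and 145.7, 166.3 and 142.9 in knockdown cells at the ES stage. The difference of 0.15 ± 0.15 on the log2 scale did not pass the test (adjusted p = 0.589). The signals in SNM were 88.8, 103.4 and 84.14 in control and 90.44, 89.4 and 80.79 in knockdown cells, and overlapped. After neuronal differentiation they were 128.4, 103.5 and 123.3 in control cells and 72.82, 68.01 and 68.6 in knockdown cells, in which no array detected the probe. Knockdown cells were thus at least 2.40-fold lower (adjusted p = 5.86e-07). In control cells Eng fell from the ES to the SNM stage (-1.40 ± 0.15, adjusted p = 2.75e-07) and rose again to the neuronal stage (0.63 ± 0.15, adjusted p = 0.00158). The rise missed the minimum of 1.5-fold without control array 1 of the neuronal stage or without control array 3 of the SNM stage (lowest value 0.47).

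The order of the conditions by mean log2 level was set beside the spread of the arrays. For Emcn, control cells of the neuronal stage came first, followed by knockdown cells of that stage, control and then knockdown cells of the SNM stage and the undetected ES stage, and no neighbours in this order overlapped. For Cldn5, control and then knockdown cells of the SNM stage stood above the rest without overlap. For Pecam1, the ES conditions overlapped each other and stood apart from the remaining conditions, which overlapped in turn. Tek likewise had the overlapping ES conditions on top, followed by knockdown cells of the SNM stage by themselves. Esam had the order control ES, knockdown ES, both SNM conditions, control neuronal and knockdown neuronal, with overlap only between the SNM conditions. Flt1 was highest in knockdown cells of the SNM stage, which did not overlap knockdown cells of the neuronal stage, while these overlapped control cells of the SNM stage. Cdh5 was highest in control cells of the neuronal stage and lowest in control cells of the SNM stage, each without overlap with its neighbour. Eng had the order knockdown ES, control ES, control neuronal, both SNM conditions and knockdown neuronal, with overlap only between the SNM conditions. Its ES conditions were separated although their difference did not pass the test (adjusted p = 0.589 from limma). All neighbours overlapped for Kdr and Tie1.

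The first comparison between stages asked how the genes moved as control cells left the ES state. Emcn, Cldn5 and Flt1 rose and Pecam1, Cdh5, Tek, Eng and Esam fell, so that 8 of the 8 genes tested were called, 3 higher and 5 lower, in a comparison in which 23.7% of all 20703 tested probes were called higher and 25.4% lower (49.1% in all). Emcn and Cldn5 met the detection rule only at the SNM stage, and Pecam1 and Tek only at the ES stage. Each was higher there, so the rule itself favoured the direction of these calls. The changes of the 8 genes ran from at least 14.2-fold up for Emcn to 5.25-fold down for Pecam1, with a median of -1.38 on the log2 scale against -0.08 over all tested probes. The fall of Cdh5 rests on the probe without an accession, since its annotated probe was not tested at this step. In knockdown cells 3 rose and 4 fell of 8 tested, beside 26.4% of all tested probes called higher and 30.9% lower (57.3% in all). The genes that rose were again Emcn, Cldn5 and Flt1, and those that fell Pecam1, Tek, Eng and Esam, while Cdh5 changed by 0.35 ± 0.14 (adjusted p = 0.0291, under 1.5-fold). The median of the 8 genes was -0.43, against -0.11. Emcn, Cldn5 and Flt1 met the detection rule in knockdown cells only at the SNM stage, where they were higher. Pluripotency markers fell over the same step, from a summed normalized signal of 62900 to 63800 to one of 13560 to 14490 in control cells and from 64850 to 67080 to 9510 to 9877 in knockdown cells, and fibroblast and feeder markers rose, with 14 of 15 called higher in control and 15 of 15 in knockdown cells. Their part in these changes was not tested. Without background correction the rise of Flt1 in control cells was below 1.5-fold (0.46 with quantile and 0.30 with percentile scaling).

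From the SNM to the neuronal stage the genes parted. In control cells Emcn (8.21-fold), Cdh5 (3.73-fold) and Eng (1.54-fold) rose and Cldn5, Esam and Flt1 fell, 6 of 6 tested, beside 14.3% of all tested probes called higher and 15.1% lower (29.4% in all). The value of Cdh5 is from the probe without an accession. Its annotated probe rose by at least 1.23-fold (log2 fold change 0.70 ± 0.18, adjusted p = 0.00304 from limma). Cldn5 met the detection rule in control cells only at the SNM stage, where it was higher. In knockdown cells Emcn rose 8.51-fold, and Pecam1, Tek, Cldn5, Esam and Flt1 fell, so that 6 of 8 tested were called, beside 13.8% of all tested probes called higher and 14.8% lower (28.6% in all). Pecam1, Tek, Cldn5 and Eng met the detection rule there only at the SNM stage, where they were higher. The rule itself thus favoured a fall for them, and the count is no measure of the set. Cdh5 (0.25 ± 0.14, adjusted p = 0.135) and Eng (-0.55 ± 0.15, adjusted p = 0.00448, under 1.5-fold) were not called. The median was -0.07 over the 6 genes tested in control and -0.67 over the 8 tested in knockdown cells, against -0.07 and -0.02 over all tested probes. Pecam1 and Tek were tested in knockdown cells alone, so these medians cover different genes and cannot be set against each other. The same step in control cells raised 16 of 17 skeletal muscle markers (median 5.31) and 13 of 15 fibroblast markers, and in knockdown cells 11 of 12 tested muscle markers fell and 7 of 15 fibroblast markers rose. Pluripotency markers fell for 10 of 13 tested in knockdown cells (median -1.50) and for 4 of 13 in control cells (median -0.32), with 1 higher in each. The part of these cell types in the changes of the 10 genes was not tested. In control cells the rise of Eng was under 1.5-fold without background correction (0.27 with quantile and 0.29 with percentile scaling) and with an offset of 50 (0.37), and missed the methods' t-test after Benjamini-Hochberg adjustment (adjusted p = 0.0671). The fall of Flt1 there was under 1.5-fold in the same settings (-0.35, -0.38 and -0.47) and without control array 3 of the SNM stage (-0.54), and missed the methods' t-test even without adjustment. That of Esam was -0.50 and -0.53 without background correction. In knockdown cells the falls of Flt1 (-0.46 and -0.47), Pecam1 (-0.24 and -0.26) and Tek (-0.32 and -0.36) were under 1.5-fold without background correction and with an offset of 50 (-0.56, -0.28 and -0.43), and that of Flt1 missed the methods' t-test without adjustment as well. The mean of both probes of Pecam1 fell by 0.43. In knockdown cells, without array 1 of the neuronal or array 3 of the SNM stage, the falls of Flt1 (-0.53 and -0.59) and Pecam1 (-0.51 and -0.57) were not called and that of Eng was (-0.61 and -0.71).

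**Figure D2:**
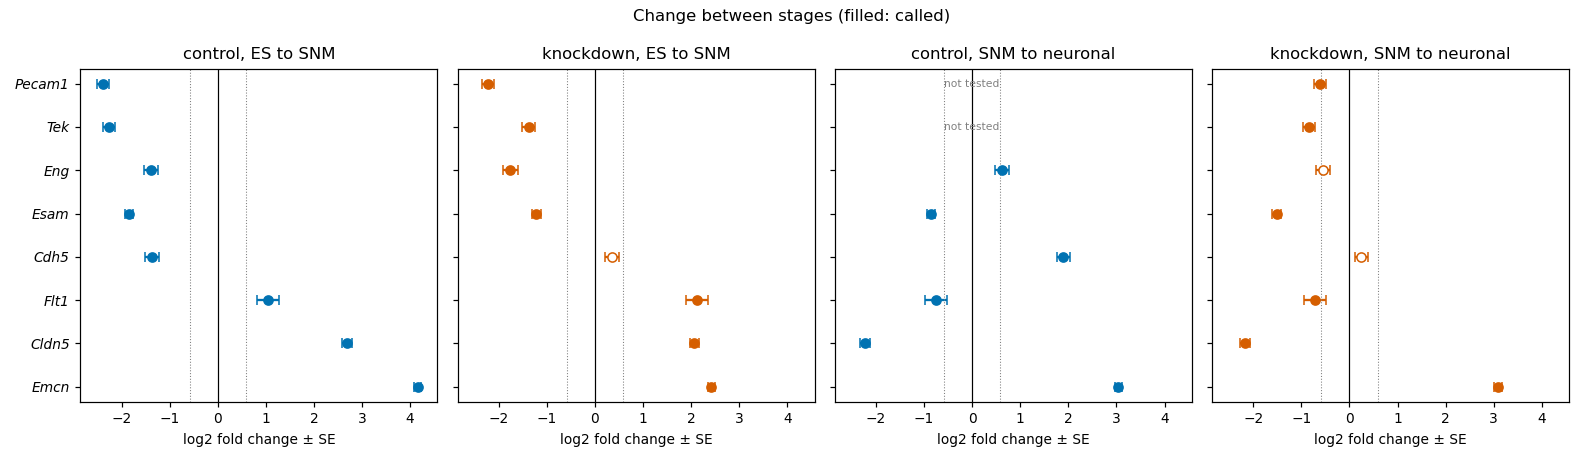
Log2 fold change (horizontal axis, positive where the later stage was higher) of the genes tested, with its SE from the limma model over 3 arrays per condition, for control (blue) and knockdown cells (orange). Filled points were called at an adjusted p-value under 0.05 and at least 1.5-fold, open points were not, and dotted lines mark 1.5-fold. Emcn rose at all 4 steps, Cldn5 rose and then fell, and Cdh5 and Eng rose to the neuronal stage in control cells alone; values for Emcn and Cldn5 against the ES stage are fitted values of undetected probes and not bounds.

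At the ES stage, the comparison of knockdown with control cells called 1 of the 6 genes tested, Cdh5 (lower, by the probe without an accession), beside 0.516% of all 18411 tested probes called higher and 1.17% lower (1.68% in all). The median log2 fold change of the 6 genes was -0.06 against 0.01. With the annotated Cdh5 probe in its place, no gene was called by limma. At an unadjusted p-value under 0.05, 2 of the 6 differed, and the share of all tested probes at this threshold was not counted. By the methods' t-test 0 were called after Benjamini-Hochberg adjustment, and without background correction (-0.38 with quantile and -0.33 with percentile scaling) or with an offset of 50 (-0.50) the change of Cdh5 was under 1.5-fold. At the SNM stage Flt1, Cdh5 and Tek were higher and Emcn was lower in knockdown cells, 4 of 8 tested, beside 11% of all tested probes called higher and 8.9% lower (19.9% in all), with medians of 0.16 and -0.04. Tek and Pecam1 met the detection rule only in knockdown cells, where they were higher. Of the 4 called, the changes of Tek and Cdh5 were below 1.5-fold without background correction (0.27 and 0.37 with quantile normalization) and with an offset of 50 (0.36 and 0.51), and that of Flt1 was not called by the methods' t-test after Benjamini-Hochberg adjustment (adjusted p = 0.0615). At this stage mural cell markers had a summed normalized signal of 3523 to 3814 in knockdown and 1147 to 1300 in control cells, with 3 of 9 tested called higher: Vtn (10.3-fold), Acta2 (3.73-fold) and Des (1.61-fold). Des is also on the list of skeletal muscle markers, and Acta2 is a gene of muscle as well. Trophoblast and endoderm markers stood at 7733 to 8411 in knockdown and 3394 to 3597 in control cells, with 7 of 11 tested called higher and 1 lower. Skeletal muscle markers had a summed normalized signal of 5043 to 5384 against 2794 to 2892, with 9 of 12 tested called higher, and fibroblast and feeder markers one of 10140 to 11760 against 8385 to 9105, with 4 of 15 higher and 1 lower. Pluripotency markers were lower, at 9510 to 9877 in knockdown and 13560 to 14490 in control cells, with 7 of 13 tested called. The part of these cell types in the changes of Flt1, Cdh5, Tek and Emcn was not tested.

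At the neuronal stage Emcn, Eng and Cdh5 were lower and Flt1 was higher in knockdown cells, 4 of 5 tested, beside 13.9% of all tested probes called higher and 13.5% lower (27.4% in all). The fifth, Esam, was 1.46-fold lower. Their median was -0.72, which is the value of Cdh5 by the probe without an accession, against 0.01 over all tested probes. It leaves out the 5 genes not tested, and Eng met the detection rule only in control cells, where it was higher. The median is thus no measure of the 10 genes as a set. The arrays of knockdown and control cells did not overlap for any of the 5, a separation that was not counted over all probes. Eng at the ES stage was separated as well, at an adjusted p = 0.589 from limma. Without knockdown array 3 the fall of Cdh5 was -0.58, just under the minimum for a call. With quantile normalization without background correction Flt1 (0.577), Eng (-0.558) and Cdh5 (-0.41) missed 1.5-fold as well, which left Emcn. Cdh5 did so too with percentile scaling without background correction (-0.44) and with an offset of 50 (-0.52). Besides the muscle markers, of which 16 of 17 were lower in knockdown cells, fibroblast and feeder markers differed, with a summed normalized signal of 16090 to 19310 in knockdown and 27860 to 31180 in control cells and 11 of 15 called lower. Pluripotency markers were lower as well, at 4649 to 4970 against 11880 to 12320, with 11 of 13 tested called (median -1.84). Trophoblast and endoderm markers were higher, at 12410 to 12650 against 7559 to 8010, with 4 of 9 tested called. Mural cell markers had a summed normalized signal of 7895 to 7971 against 16140 to 17150, with 3 of 11 tested called higher and 3 lower; the list includes Des and Acta2, which are genes of muscle as well. The mural markers Cnn1, Higd1b and Myh11, picked out after their values were seen, were detected on no array. The part of these cell types in the lower levels of Emcn, Eng and Cdh5 and the higher level of Flt1 was not tested.

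**Figure D3:**
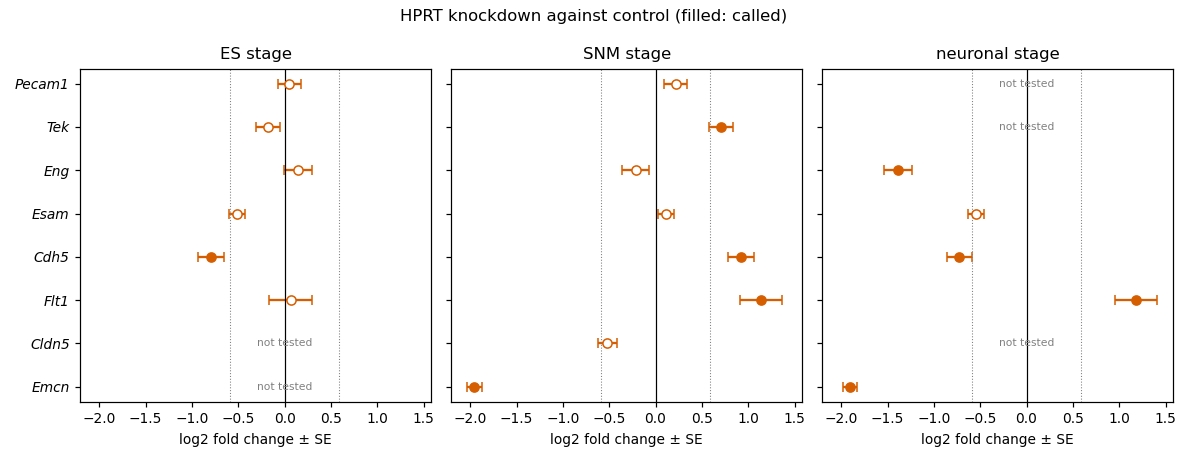
Log2 fold change of HPRT-knockdown against control cells (horizontal axis, negative where knockdown cells were lower) at each stage, with its SE from the limma model over 3 arrays per condition. Filled points were called, open points were not, dotted lines mark 1.5-fold, and genes not detected on all 3 arrays of either condition are written as not tested. Emcn lay near -1.9 on the log2 scale and Flt1 above 1 at both differentiated stages, and Cdh5 changed side between stages.

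Whether the knockdown effect itself differed between stages was tested by the difference of the fold changes. Between the SNM and the ES stage it was called for 6 of 8 genes, beside 11.7% of all tested probes called more positive and 9.61% more negative (21.3% in all). It was more positive at the SNM stage for Cdh5 (1.72 ± 0.20), Flt1 (1.07 ± 0.32), Tek (0.88 ± 0.18) and Esam (0.63 ± 0.13), and more negative for Emcn (-1.73 ± 0.11) and Cldn5 (-0.61 ± 0.14). For Emcn and Cldn5 the ES side of this difference is a pair of undetected levels. Between the neuronal and the SNM stage it was called for 4 of 8 genes, beside 13.7% of all tested probes called more positive and 14.8% more negative (28.6% in all), and was more negative at the neuronal stage for each: Cdh5 (-1.65 ± 0.20), Eng (-1.17 ± 0.21), Tek (-0.81 ± 0.18) and Esam (-0.66 ± 0.13). Tek was detected on 2 control arrays and 1 knockdown array of the neuronal stage, and Eng on none of the knockdown arrays there. For Flt1 the difference was 0.04 ± 0.32 (adjusted p = 0.928). Without background correction the differences of Tek and Esam in both tests, of Cldn5 in the first and of Eng in the second were under 1.5-fold. The depth of the knockdown differed between the stages as well. Hprt1 was 17-fold lower in knockdown cells at the ES stage, 3.39-fold in SNM and 21.8-fold at the neuronal stage. The part of this depth in the differences was not tested.

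Ligands and partners of these receptors were detected in part. Of 22 such genes on the array, 12 to 15 were detected on all 3 arrays of a condition. For comparison, a single array detected 18827 to 22202 of all 45281 probes. By the looser rule of at least 1 of 18 arrays, 18 were detected, and the share of all probes under this rule was not counted. The 4 that were not were Acvrl1, Apln, Dll4 and Gdf2 (named for that reason after their values were seen). From the ES to the SNM stage 10 rose and 3 fell of 15 tested in control cells, and 10 rose and 2 fell of 16 in knockdown cells. Of all tested probes, 23.7% were called higher and 25.4% lower in control cells, and 26.4% and 30.9% in knockdown cells. Vegfa, the ligand of Kdr and Flt1, had signals of 508.1 to 539 in control cells at the ES stage and 2662 to 3037 at the SNM stage, a rise of 4.90-fold (adjusted p = 2.83e-14). Nrp1, the neuropilin that acts as a VEGF co-receptor and as a semaphorin receptor on axons, rose 14.1-fold in control and 23.2-fold in knockdown cells over this step. Angpt1, the activating ligand of Tek, rose in control cells from 0 detected arrays to signals of 105.2 to 120, by at least 2.11-fold.

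In knockdown against control cells, 2 of 15 of these partner genes were higher and 2 lower in SNM. Of all tested probes, 11% were called higher there and 8.9% lower. Vegfa (1.60-fold) and Nrp2 (1.56-fold) were higher, and Figf, the gene of VEGF-D (2.17-fold), and Efnb2, the arterial ephrin ligand (1.61-fold), were lower. In cells of the neuronal stage 1 of 15 was higher and 5 were lower, beside 13.9% and 13.5% of all tested probes. Among those lower were Nrp1, with signals of 2255 to 2912 in control and 753.6 to 1099 in knockdown cells (-1.63 ± 0.16, adjusted p = 1.76e-07), Angpt4 (2.73-fold), Efnb2 (2.54-fold) and Tgfbr2, a receptor with which endoglin acts (2.19-fold). Angpt4 was detected on 1 of 3 knockdown arrays there. At the ES stage 1 of 12 was called, Notch4, which was 1.82-fold higher in knockdown cells. Of all probes tested at that stage, 0.516% were called higher and 1.17% lower.

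Of 26 other genes known from endothelium in general, 10 to 14 were detected on all 3 arrays of a condition, and 18 on at least 1 array. A single array detected 18827 to 22202 of all 45281 probes. The share of all probes detected on at least 1 of 18 arrays was not counted, so the count of 18 says little about expression. In knockdown against control cells 0 were higher and 1 lower of 11 tested at the ES stage (Rasip1, 1.54-fold), 3 higher and 1 lower of 15 in SNM, and 2 higher and 4 lower of 13 in cells of the neuronal stage. Of all tested probes, 0.516% were called higher and 1.17% lower at the ES stage. These shares were 11% and 8.9% in SNM, and 13.9% and 13.5% at the neuronal stage. The genes of this list higher in SNM were Cd93 (1.83-fold), the calcitonin receptor partner Ramp2 (1.70-fold) and the adhesion molecule Icam2, which was detected on 0 of 3 control arrays (at least 1.51-fold). Vwf, the von Willebrand factor gene, had signals of 119.3 to 129.3 in knockdown cells of the neuronal stage and 68.26 to 71.9 in control cells, of which 1 array detected it (log2 fold change 1.62 ± 0.08, adjusted p = 9.77e-11). Robo4, the roundabout receptor of endothelium, went the other way, by at least 1.63-fold (adjusted p = 4.91e-06). Vwf fell 4.23-fold and Mmrn2, an endothelial matrix protein, 12.1-fold from the ES to the SNM stage in control cells, while Calcrl rose by at least 2.30-fold.

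Of 23 endothelial transcription factors, 11 to 18 were detected on all 3 arrays of a condition. On at least 1 array 21 were detected, and Erg and Fli1 on none. A single array detected 18827 to 22202 of all 45281 probes, and the share of all probes detected on at least 1 array was not counted. Etsrp71, now named Etv2, which starts endothelial and blood development, had signals of 103.5 to 109.1 in control cells in ES cells, 155.1 to 178 in SNM and 68.37 to 78.82 after neuronal differentiation, and fell 4.01-fold over the last step in control and 5.40-fold in knockdown cells. Tal1, a factor of blood and endothelial progenitors, was detected on all 3 arrays in control cells of the SNM and the neuronal stage. In knockdown cells it was detected on 1 and 0 of 3 arrays and was lower (1.51-fold, adjusted p = 0.00235, and at least 1.39-fold, adjusted p = 4.82e-05). Sox17, a factor of arterial endothelium and of endoderm, had signals of 740.8 to 811.9 in control cells at the ES stage and fell 12.7-fold to the SNM stage. After neuronal differentiation it was 2.10-fold higher in knockdown cells. Over all, 2 factors were higher and 4 lower of 18 tested in knockdown SNM, and 4 higher and 7 lower of 17 at the neuronal stage. Of all tested probes, 11% were called higher and 8.9% lower in SNM, and 13.9% and 13.5% at the neuronal stage. The largest falls in knockdown cells of the neuronal stage were those of Mef2c (6.11-fold), which is also a muscle and neuronal factor, Foxc2 (5.20-fold) and Klf2 (3.59-fold). Klf2 is also on the list of pluripotency markers, of which 11 of 13 tested were lower at this stage.

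Other genes of the blood-brain barrier and of tight junctions moved in both directions. Of 22 on the array, 12 to 15 were detected on all 3 arrays of a condition, where a single array detected 18827 to 22202 of all 45281 probes. The 3 detected nowhere were Abcb1a, the drug efflux pump of brain endothelium, Marveld2 and Slc16a1 (named after their values were seen). At the SNM stage, where Cldn5 was highest, 3 had risen and 6 fallen from the ES stage of 14 tested in control cells. Over this step 23.7% of all tested probes were called higher and 25.4% lower. The Wnt target Apcdd1 rose 3.75-fold, and Sox17, Foxq1 (7.43-fold) and Jam2 (2.93-fold) fell. In knockdown against control cells 4 were higher and 1 lower of 15 in SNM, and 6 higher and 2 lower of 15 in cells of the neuronal stage. Of all tested probes, 11% were called higher and 8.9% lower in SNM, and 13.9% and 13.5% at the neuronal stage. The junctional adhesion genes Jam2, with signals of 627.8 to 799 in control and 1778 to 2068 in knockdown cells, and Jam3 were 2.78-fold and 2.76-fold higher at the neuronal stage, and Foxq1 was 3.49-fold higher. Markers of blood cells, platelets and microglia were detected on all 3 arrays for 2 to 6 of 20 genes in a condition, and 8 of the 20 were detected on no array.

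Over the 18 arrays, Pecam1, Tek, Esam and Eng varied together, with Pearson correlations of their log2 signals between 0.81 and 0.97, and Emcn ran opposite to Pecam1, Tek and Esam (-0.90 to -0.91). The arrays come from 6 RNA pools, and these values describe the course over conditions. Among 16254 detected gene symbols, the closest in course to Emcn were the predicted gene LOC100047583 (r = 0.995), Cdkn1a (0.984) and Pscd3 (0.984). Those closest to Cldn5 were the transcription factors Ptf1a (0.981) and Prdm13 (0.974) and the Notch modifier Mfng (0.979). Pecam1 was closest to Cul4b (0.993), LOC269213 and Chic1 (both 0.992), Tek to Capsl (0.988), Rab26 (0.986) and LOC380888 (0.984), and Esam to Prdx1, Mthfd1 and Sfrs3 (each 0.991). Eng was closest to Car13, Acacb (both 0.979) and Ngfr (0.973), and Flt1 to Clcn3 (0.967), Corin and 6430628O11Rik (both 0.956). Cdh5 had the lowest values, with Lmna (0.922), Cryab (0.921) and Arhgdib (0.915). None of the closest genes was another of the 10.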

How the data were processed

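Gene expression was measured on 18 bead arrays, 3 per condition. The authors deposited raw bead-average intensity values, without background subtraction or scaling, together with the detection p-value of every probe; software versions for that step were not given in the sources used here. A second deposited table supplied probe symbols, accessions and chromosomes. Its 72 columns of per-sample values are named by chip and position, could not be paired with samples and were not used, so slides could not be tested as batches.

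Conditions and array numbers were read from the sample titles. Intensities were background-corrected from the detection p-values, offset by 16, quantile-normalized and put on the log2 scale as in neqc (limma 3.58.1, R 4.3.3). One linear model (lmFit, contrasts.fit, eBayes) held the 6 conditions, and the scripts were tested on simulated data. Testing required a detection p-value under 0.05 on all 3 arrays of one of the conditions compared, and a probe was called at a two-sided Benjamini-Hochberg adjusted p-value (over all probes tested) under 0.05 and at least 1.5-fold. An exact permutation test of 3 against 3 arrays cannot give a p-value below 0.1. Where 0 of 3 arrays of the dimmer condition detected a probe, the fold is a lower bound against the lowest detected signal of each array or the probe's own where higher. The number of arrays limits precision.

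The 10 genes, the other gene lists and the tests were chosen with earlier results of these data known. Named are all 10 genes with every probe, Hprt1, from each list up to 4 called genes of largest change per comparison, Erg, Fli1, Tal1 and Sox17, and the 3 symbols closest to each detected gene. All 12 probes with a RefSeq accession matched the reference table under the same symbol; 7 of the 10 genes had a promoter entry there. Alternatives were 2 normalizations without background correction, an offset of 50, no detection filter, the mean of all probes, a minimum of 2-fold, the array number as a block, fits of the compared groups alone, the methods' t-test and each array left out. Deviations of control and knockdown arrays of equal number, read from the titles, correlated across probes above 0.1 for each number at the SNM stage (0.486, 0.108 and 0.489), although array 2 there correlated more with an array of another number (0.191). At the ES (-0.094, 0.025, 0.096) and neuronal stages (0.605, 0.094, 0.325) not every correlation was over 0.1. RNA-Seq data were not analysed here.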

Additional observations from a re-analysis of the deposited data

Results flagged for a closer look

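The effect of the knockdown differed between stages, by a test of the difference itself and by at least 1.5-fold, for the following genes, as differences of log2 fold changes from the limma model. Between the SNM and the ES stage these were Cdh5 (1.72, adjusted p = 5.06e-06), Flt1 (1.07, adjusted p = 0.0151), Tek (0.88, adjusted p = 0.00123), Esam (0.63, adjusted p = 9.02e-04), Cldn5 (-0.61, adjusted p = 0.00303) and Emcn (-1.73, adjusted p = 6.82e-09). Emcn and Cldn5 were not detected at the ES stage in either cell type. Hprt1 itself was 17-fold lower in knockdown cells at the ES stage, 3.39-fold in SNM and 21.8-fold at the neuronal stage. The part of this depth in the differences was not tested. The value of Cldn5 fell below 1.5-fold without knockdown array 1 of the ES stage, control array 1 or 2 of the SNM stage or knockdown array 3 of the SNM stage, and that of Esam without knockdown array 1 of the ES stage, knockdown array 2 or control array 3 of the SNM stage (lowest 0.53).

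Between the neuronal and the SNM stage the genes were Cdh5 (-1.65, adjusted p = 3.72e-06), Eng (-1.17, adjusted p = 2.20e-04), Tek (-0.81, adjusted p = 0.00178) and Esam (-0.66, adjusted p = 4.16e-04). The value of Esam was -0.565 and not called without knockdown array 2 of the SNM stage. For Cdh5 the annotated probe gave -0.87 (adjusted p = 0.00974) between these stages and was not tested between the SNM and the ES stage.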

How the results depend on the processing

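None of the called changes of the 10 genes reversed direction under the alternatives run. Among counts, knockdown against control cells at the ES stage had 1 gene lower, and 0 under both normalizations without background correction, an offset of 50, the mean of all probes, a minimum of 2-fold, the adjusted t-test of the methods and, chosen after seeing the data, the brightest probe with a RefSeq accession. At the SNM stage 3 were higher, and 1 without background correction (both ways), with an offset of 50 or at 2-fold. At the neuronal stage 1 was higher and 3 lower: 0 higher and 1 lower with quantile normalization without background correction, and 0 higher with the mean of all probes. From the SNM to the neuronal stage 3 fell in control cells, and 1 without background correction (both ways) or at 2-fold, and 5 fell in knockdown cells, but 2 without background correction (both ways), with an offset of 50 or at 2-fold and 3 with the mean of all probes. Effects that differed between the SNM and the ES stage were 4 more positive and 2 more negative, and 2 and 1 without background correction (both ways), with an offset of 50 or at 2-fold. Between the neuronal and the SNM stage 4 were more negative, and 1 without background correction (both ways) and 2 with an offset of 50 or at 2-fold. The cause of each was not tested.

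Leaving out 1 array at a time gave, in knockdown against control cells, 0 higher and 1 lower at the ES stage, 2 to 3 higher and 1 to 2 lower at the SNM stage, and 1 higher and 2 to 4 lower at the neuronal stage. In control cells 3 rose and 5 fell from ES to SNM, and 2 to 3 rose and 2 to 3 fell from SNM to neuronal. In knockdown cells 3 rose and 4 fell, and then 1 rose and 4 to 5 fell. Differing effects numbered 3 to 4 more positive and 1 to 2 more negative between SNM and ES, and 0 and 3 to 4 between neuronal and SNM. With the array number as a replicate block, the pairing of arrays changed no call of the 10 genes and left 3 higher and 1 lower at the SNM stage. Fits of the compared groups alone and the absence of a detection filter left each of these counts within 1.5 times its value.

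Most probes other than that of Emcn were dim, and undetected probes carry only bounds. Every array of a condition shares 1 RNA pool, so nothing here measures culture-to-culture spread.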
